A study of Rattus norvegicus with 14 samples.

Results

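The cytosolic ribosomal protein genes encode the proteins of the ribosome that works outside mitochondria. The group was picked with earlier results of these data known, and its members entered by name. A probe set is the group of short probes that measures 1 transcript. It entered when the platform annotation gave it 1 gene symbol of the form Rpl, Rps, Rplp or Rpsa. This gave 40 genes, 28 of the large (60S) subunit and 12 of the small (40S) subunit, of 4736 genes with a symbol of their own. They were measured by 59 of 8740 probe sets, and the brightest probe set stood for a gene. All 40 passed the filter on dim probe sets, which kept 3135 genes. A further 40 probe sets named a ribosomal protein gene among several symbols; they are summarised once below and not named.

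The arrays were Affymetrix rat arrays of liver RNA from male rats 74 days old that had eaten a special diet for 53 days, either sufficient or deficient in vitamin A. Each diet had 7 arrays: numbers 1 to 4 from about 10 µg of total RNA, and numbers 1, 2 and 4 from about 2 µg. The labels do not state which arrays share a liver, so the arrays that carried 1 diet and 1 number were combined by their mean, here named an animal, with n = 4 in each diet; number 3 of each diet rests on a single array. P-values for diet therefore measure the spread between these averaged values, which may be partly technical. The main fits for RNA amount and the interaction took arrays as separate samples, so their p-values measure the spread between arrays. The precision of all of them is limited by how few arrays there are.

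Ribosomal proteins are made in near equal amounts, assemble with ribosomal RNA in the nucleolus, and are among the most abundant messages of a growing or secreting cell such as the hepatocyte. Their messages begin with a run of pyrimidines, the 5′ terminal oligopyrimidine (TOP) tract, through which mTOR signalling controls their translation, often with little change in their amount. Vitamin A acts in the liver mostly through retinoic acid and its nuclear receptors, which switch a different set of genes.

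Start-site windows are shown for 6 genes described below, because the TOP tract is the feature that these genes are known to share. Each window holds 30 bases before the annotated start and 20 bases from it, 5′ to 3′ on the gene's own strand, from RefSeq's promoter table of rat assembly GRCr8. Capitals mark CTTTC or CTCTTT anywhere in the window. In Rps3 they lie before the annotated start and in Rps16 some way after it. Whether a marked stretch is a TOP tract was not tested. The windows lie at chr3:43165902-43165951 (Rpl35, minus strand), chr9:49143081-49143130 (Rpl31, plus), chr1:163195757-163195806 (Rps3, minus), chr1:92770628-92770677 (Rps16, plus), chr12:41011671-41011720 (Rpl6, minus) and chr5:153560783-153560832 (Rpl11, minus).
Rpl35: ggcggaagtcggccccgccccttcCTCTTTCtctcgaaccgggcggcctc
Rpl31: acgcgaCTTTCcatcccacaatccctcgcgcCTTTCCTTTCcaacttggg
Rps3: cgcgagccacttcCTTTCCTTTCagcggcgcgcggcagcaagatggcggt
Rps16: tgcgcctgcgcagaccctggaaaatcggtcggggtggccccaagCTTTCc
Rpl6: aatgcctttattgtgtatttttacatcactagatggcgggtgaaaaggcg
Rpl11: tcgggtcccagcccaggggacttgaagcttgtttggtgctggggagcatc

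A window was found by gene identifier for 35 of the 40 genes. Within 30 bases on either side of the start, CTTTC lay on the gene's strand in 19 of 35 (54.3%) and on the other strand in 1. Over the 27457 promoters of the table the shares were 7.84% and 7.50%, and over the 2585 promoters of tested array genes 6.69% and 5.88%. The longer CTTTCC, which contains CTTTC, was found on the gene's strand in 11 (31.4%, against 2.68% of all promoters and 3.06% of those of tested genes) and CTCTTT, which overlaps it, in 10 (28.6%, against 2.55% and 2.32%). In the 300 bases from 250 before to 50 after the start, TCTCGCGA was found on either strand in 7 of 35 (20%, against 0.943% and 2.36%). AAGATGG, which holds the letters of a start codon, was found on either strand of the first 50 transcribed bases in 7 (20%, against 2.30% and 3.52%). TATAAA was found on either strand of the 300 bases in 4 (11.4%, against 14.3% and 10.1%). These letters describe the windows only. The Rpl6 and Rpl11 windows hold neither capitalised motif. Whether the annotated starts are those used in liver was not tested, so this does not show that a TOP tract is absent. The window of Rps27l holds no CTTTC and is not shown, because it is uncertain which gene its probe set measures.

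The question put to the diet comparison was whether ribosomal protein messages differed between livers of vitamin A-deficient and vitamin A-sufficient rats. None of the 40 genes passed the test, and the differences were small in both subunits. Values are log2 of the scaled intensity plus 16, and differences are deficient minus sufficient on that scale, which understates the change of dim genes. Fitted differences ran from -0.33 to 0.26, and 0 of 40 lay beyond 0.5 in either direction, against 283 of 3135 tested genes (9.03%). In 30 of 40 the value was lower in deficient livers, with a median of -0.05, while 40.7% of tested genes were lower, with a median of 0.05.

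In limma, with Benjamini-Hochberg adjustment over all 5244 tested probe sets, 0 of 40 genes had an adjusted p under 0.05, where 90 probe sets did (1.72%). At an unadjusted p under 0.05 there were 3 of 40, 1 higher and 2 lower, and 758 of all probe sets. The lowest adjusted p among them was 0.215. The share of values that lay lower depended on the scaling: with all arrays brought to a common median, 37 of 40 were lower with a median of -0.12, and with quantile normalization 30 of 40 with a median of -0.08. Under those scalings the median of all tested genes was -0.02 and 0.01. The ribosomal protein median minus that of all genes was -0.10 as first given, and -0.10 and -0.08 under them.

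The width of the intervals shows what 4 animals a diet could resolve. The 95% interval of the difference lay wholly between -0.5 and 0.5 in 35 of 40 genes, and in 1351 of 3135 tested genes. The median standard error was 0.11 in ribosomal protein genes and 0.17 in all tested genes. Tested genes of like brightness were not set beside these values or beside the count of differences beyond 0.5. The outermost bounds were -0.70, for Rpl19l4, and 0.53, for Rpl17, both dim probe sets.

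**Figure D1:**
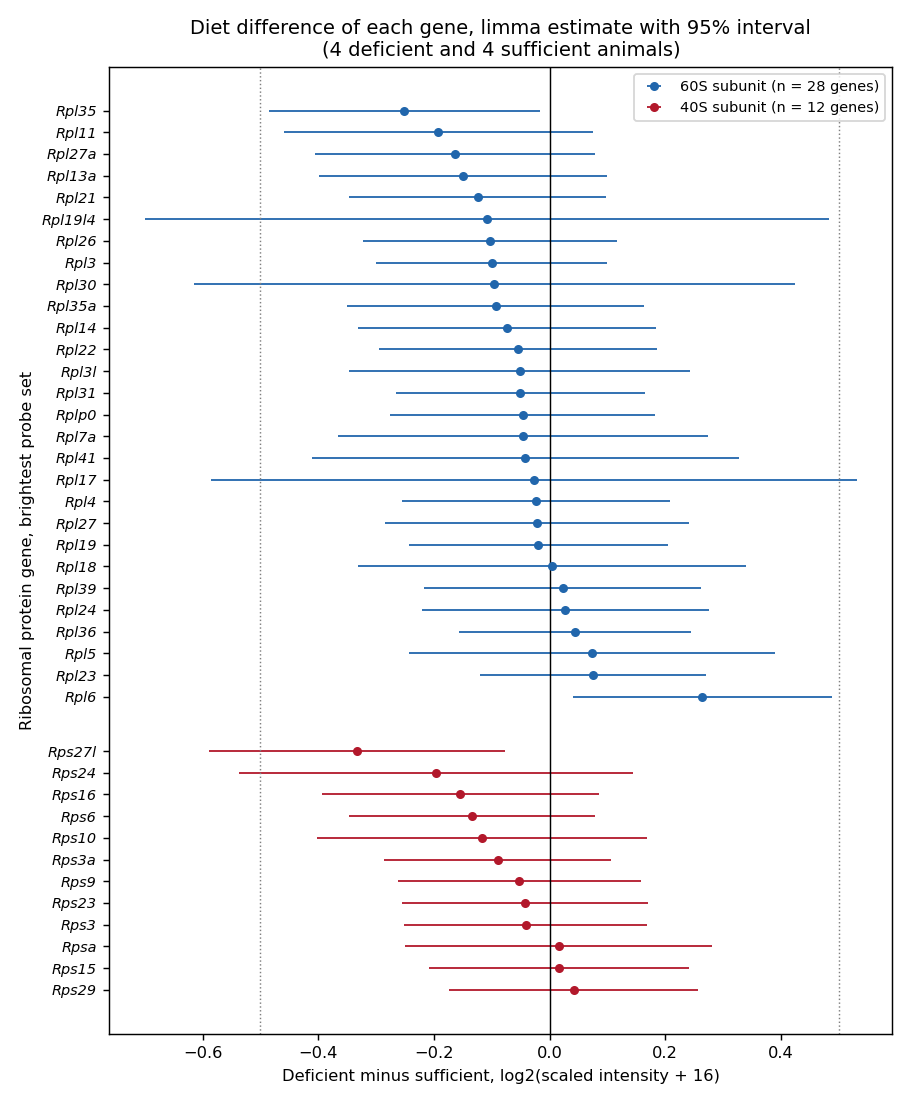
Difference between diets of each of the 40 ribosomal protein genes (deficient minus sufficient, log2 of scaled intensity plus 16), as limma estimates from 4 animals a diet with 95% intervals, 60S genes in blue above and 40S genes in red below; dotted lines stand at -0.5 and 0.5. Most points lie left of 0, none lies beyond a dotted line, and Rps27l at -0.33, Rpl35 at -0.25 and Rpl6 at 0.26 are the genes whose interval leaves out 0.

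In the large subunit 21 of 28 genes were lower in deficient livers, with a median difference of -0.05. Rpl35 encodes a protein near the exit of the peptide tunnel. Its level was 12.64, 12.60, 12.72 and 12.89 in sufficient animals 1 to 4 and 12.27, 12.57, 12.44 and 12.56 in deficient animals 1 to 4. The groups did not overlap, and every deficient animal was below the lowest sufficient one. The means were 12.71 ± 0.12 and 12.46 ± 0.14 (SD, n = 4 each), a difference of -0.25 (SE 0.11, 1.19-fold lower) that did not pass in limma (adjusted p = 0.315). A further Rpl35 probe set gave -0.32 (SE 0.16, adjusted p = 0.382 in limma), with groups that overlapped.

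Rpl6, also of the large subunit, was the gene with the most positive difference. Its brightest probe set read 12.38, 12.24, 12.58 and 12.53 in sufficient animals 1 to 4 and 12.67, 12.71, 12.63 and 12.77 in deficient animals 1 to 4. All deficient values lay above all sufficient ones, by a mean of 0.26 (SE 0.10, 1.20-fold, adjusted p = 0.267 in limma). The other Rpl6 probe set did not show this: it read 12.29, 12.38, 12.67 and 12.80 against 12.35, 12.59, 12.56 and 12.43, a difference of -0.05 (SE 0.13, adjusted p = 0.919 in limma). The direction for Rpl6 therefore differed between its probe sets.

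Rpl11 and Rpl5 bind 5S ribosomal RNA and, outside the ribosome, the p53 regulator Mdm2. Rpl11 read 12.76, 12.75, 13.19 and 13.14 in sufficient animals and 12.68, 12.80, 12.77 and 12.83 in deficient ones, a difference of -0.19 (SE 0.12, adjusted p = 0.541 in limma). Sufficient animals 3 and 4 were high, and 1 and 2 lay among the deficient values. The other Rpl11 probe set gave -0.14. Rpl5, one of the 3 dimmest large-subunit probe sets, differed by 0.07 (adjusted p = 0.894 in limma).

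Rplp0, the base of the ribosomal stalk and often used as a reference gene in PCR, was the brightest large-subunit probe set. It read 13.89, 14.08, 14.11 and 14.34 in sufficient animals and 13.95, 14.12, 14.02 and 14.14 in deficient ones. The groups overlapped almost fully, with a difference of -0.05 (95% interval -0.28 to 0.18, adjusted p = 0.907 in limma). Rpl3, near the peptidyl transferase centre, and Rpl31, at the tunnel exit, were also named as bright probe sets and differed by -0.10 and -0.05. Rpl22, whose loss mice survive with defects in T cells, differed by -0.05 (adjusted p = 0.898 in limma).

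The other large-subunit genes named by rule gave -0.16 for Rpl27a, 0.08 for Rpl23, -0.02 for Rpl4, -0.04 for Rpl41, 0.00 for Rpl18, -0.11 for Rpl19l4, -0.10 for Rpl30 and -0.03 for Rpl17. Rpl19l4 is named after Rpl19, and which message its dim probe set measures was not tested. Rpl3l, whose product replaces Rpl3 in the ribosomes of heart and skeletal muscle, gave -0.05 from a dim probe set.

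In the small subunit 9 of 12 genes were lower in deficient livers, with a median of -0.07. The probe set that the platform annotation names Rps27l had the most negative difference of the 40. Whether it measures Rps27l or its close relative Rps27 was not settled here, so the gene's identity is uncertain wherever Rps27l is named. It read 11.72, 11.66, 11.94 and 11.95 in sufficient animals 1 to 4 and 11.53, 11.45, 11.65 and 11.30 in deficient animals 1 to 4. The groups did not overlap, though the lowest sufficient and the highest deficient animal were nearly level. The means were 11.82 ± 0.15 and 11.48 ± 0.15 (SD, n = 4 each), a difference of -0.33 (SE 0.12, 95% interval -0.59 to -0.08, 1.26-fold lower, adjusted p = 0.215 in limma).

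Rps6 is the small-subunit protein phosphorylated by S6 kinase downstream of mTOR. It read 12.63, 12.52, 12.65 and 12.70 in sufficient animals and 12.45, 12.64, 12.51 and 12.36 in deficient ones, a difference of -0.13 (SE 0.10, adjusted p = 0.599 in limma). Deficient animal 2 lay within the sufficient values and the others below them. The other Rps6 probe set gave -0.15.

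Rpsa, which is also a laminin receptor precursor, read 12.64, 12.61, 12.60 and 13.04 in sufficient animals and 12.56, 12.80, 12.77 and 12.82 in deficient ones. Sufficient animal 4 was highest and the other 3 lay below 3 of the deficient animals, with a difference of 0.02 (adjusted p = 0.977 in limma). Rps24 gave -0.20 (SE 0.16), Rps16 -0.15 (SE 0.11) and Rps10 -0.12. Rps3, at the entry of the message channel and also described in DNA repair, gave -0.04, Rps15 0.02 and Rps29 0.04. Of the 40 genes, only Rpl35, Rpl6 and Rps27l had diets that did not overlap. The share without overlap among all tested genes is not given here. These 3 were also the only ones with an unadjusted p under 0.05 in limma (7.5%, against 14.6% of all tested genes).

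Several genes were measured more than once, which shows how far a difference belongs to the gene or to a probe set. In 15 genes with more than 1 tested probe set, the signs were the same in 7. Differences of 1 gene spanned a median of 0.07 and at most 0.32, in Rpl6. Rpl13a gave -0.15 and 0.08, and Rpl24 0.03 and -0.17. The 39 tested probe sets with several symbols had 0 calls, 32 lower values and a median of -0.07. Ribosomal protein genes have many near-identical processed copies in mammalian genomes, so a probe set may also bind messages of copies, and intensities of different probe sets are not levels that can be set against each other.

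**Figure D2:**
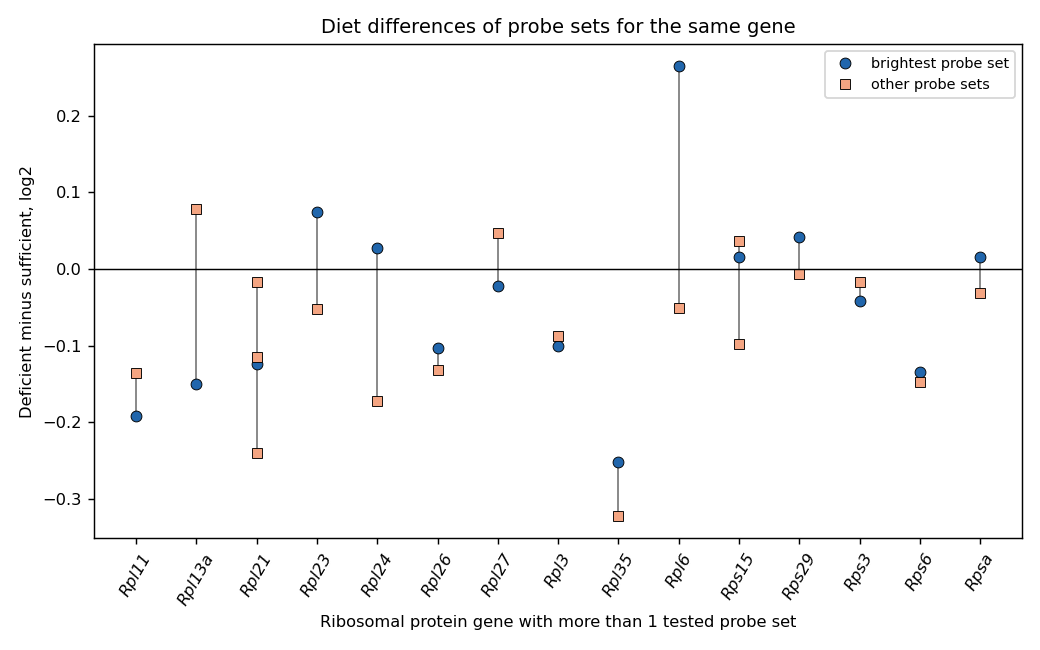
Diet difference (deficient minus sufficient, log2) of every tested probe set of the 15 genes with more than 1, with the brightest as circles and the others as squares, joined within a gene. The widest gap, 0.32, is that of Rpl6, whose probe sets lie at 0.26 and -0.05.

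The genes that hold CTTTC near the start and those that do not had like values. In the 19 with it the median diet difference was -0.05, with 14 lower, and in the 16 without it -0.05, with 12 lower.

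Most ribosomal protein genes varied less between animals of the same diet than the median tested gene. Most are also bright, and tested genes of like brightness were not compared. Their pooled standard deviation within diets had a median of 0.138, from 0.0773 (Rpl23) to 0.463 (Rpl19l4), and was under the median of all tested genes, 0.226, in 33 of 40. Among dimmer probe sets it was 0.444 in Rpl17, 0.395 in Rpl30 and 0.229 in Rps24, but 0.143 in Rpl3l and 0.148 in Rpl5. What variation there was ran partly together. After the diet means were subtracted, the correlation of a gene with the mean of the other 39 over 8 animals had a median of 0.445, from -0.453 (Rpl19l4) to 0.845 (Rps15), and was over 0.5 in 20 of 40. Among 3095 other tested genes it was over 0.5 against the ribosomal protein mean in 284 (9.18%). These points share the arrays and their scaling, and the correlations are descriptions. The 5 other genes most alike over these 8 values were Urod (0.949), Eno1 (0.946), Tmem126b (0.934), Mfsd12 (0.930) and Col26a1 (0.887).

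By animal, the mean deviation of the 40 genes from each gene's own mean was -0.05, -0.02, 0.06 and 0.14 in sufficient animals 1 to 4 and -0.02, -0.02, -0.07 and -0.01 in deficient animals 1 to 4. Sufficient animals 3 and 4 stood above all deficient animals, sufficient animal 1 below all but deficient animal 3. Sufficient animal 4 had the highest value of all 8 in 20 of 40 genes and in 7.43% of all tested genes. Without that animal the median diet difference was -0.02, with 23 of 40 lower, beside a median of 0.03 and 45.0% lower for all tested genes. Without sufficient animal 1, in which the 40 genes were lowest among sufficient animals, it was -0.10, with 32 of 40 lower.

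**Figure D3:**
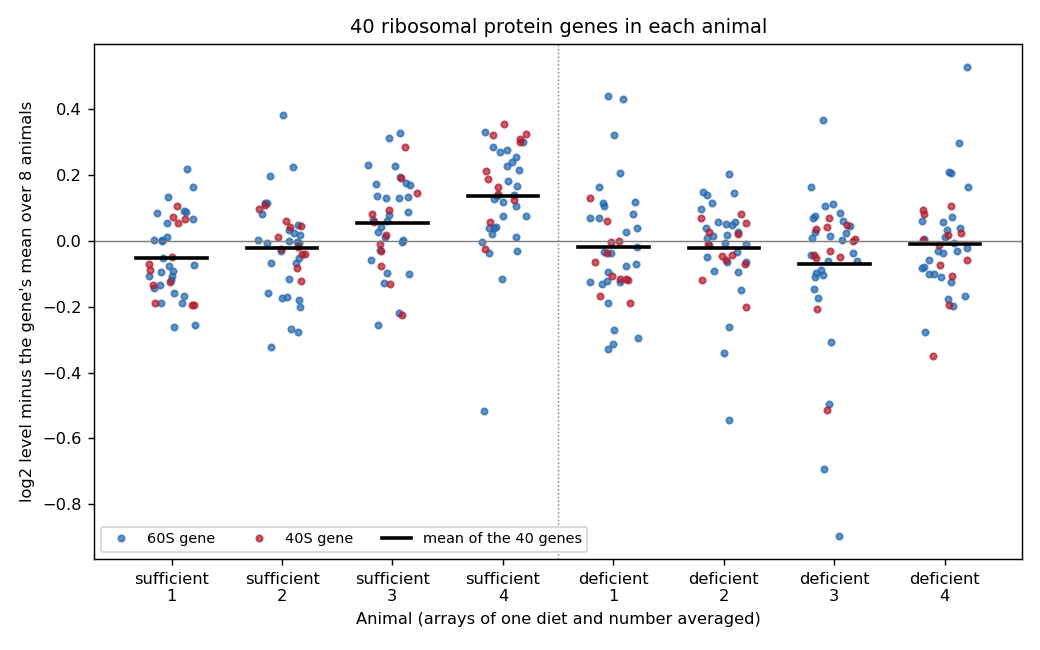
Level of each of the 40 genes in each animal minus the gene's mean over 8 animals (log2), with 60S genes in blue, 40S genes in red and a bar at the mean of the 40. Bars lie between -0.07 and 0.14, and sufficient animal 4 has the highest.

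Liver is a mixture, and in such bulk samples fewer cells of a type and less RNA per cell cannot be told apart. Of 7 hepatocyte markers 0 were called, with a median difference of 0.17 and summed scaled intensities of 176658 to 225503 in sufficient and 212377 to 244232 in deficient animals. Of 6 erythroid markers 4 fell and 0 rose in deficient livers, and their sum was 12276 to 15237 in sufficient and 3834 to 6518 in deficient animals. Of 4 macrophage markers 1 rose (Lgals3, 0.77, adjusted p = 0.049 in limma) and 0 fell, with sums of 4238 to 5078 and 5924 to 7697. Of 7 stellate markers 1 rose and 0 fell, while 5 of the 7 lay lower and the median was -0.24 (sums 2113 to 3023 and 2229 to 2713). Of 3 endothelial markers 1 fell (571 to 711 and 452 to 552). The 4 lymphocyte (709 to 834 and 700 to 893) and 3 cholangiocyte markers (271 to 309 and 366 to 469) had 0 calls, and no marker was at 0. Counts of markers here are those tested, while each sum also takes in markers on the array that fell below the filter. The sums thus cover 5 macrophage, 8 stellate, 4 endothelial and 7 lymphocyte markers. The part of these cells in the ribosomal protein values was not tested. The log2 ratio of 3′ to 5′ probe sets, a sign of RNA integrity, was 0.06 higher in deficient livers for GAPDH (p = 0.743) and changed by -0.09 for beta-actin (p = 0.457), both from exact permutation tests, two-sided.

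The rest of the translation machinery was set beside the ribosomal proteins through 5 lists. Of 11 further genes with TOP messages, such as elongation factors, 0 passed; 8 were higher in deficient livers and the median was 0.13. Nap1l1, a histone chaperone, came nearest (0.68, SE 0.15, adjusted p = 0.0563 in limma), and Hnrnpa1, a splicing factor, gave 0.33 (adjusted p = 0.262 in limma). Of 20 genes of mTOR signalling and translational control, 1 rose and 0 fell, with a median of 0.05. It was Eef2k, the kinase that inhibits elongation factor 2, at 1.09 (SE 0.16, adjusted p = 0.00532 in limma).

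Of 13 genes of ribosome biogenesis 1 fell and 0 rose, although 11 of 13 lay higher, with a median of 0.12. The one that fell was Rpp21, a subunit of ribonuclease P, which trims transfer RNA (-1.69, SE 0.15, adjusted p = 0.000148 in limma). None of 5 tRNA synthetase genes passed (4 higher, median 0.09). None of 14 mitochondrial ribosomal protein genes passed (9 higher, median 0.13), where Mrps31 gave 0.31 (adjusted p = 0.274 in limma) and Mrpl44 0.33 (adjusted p = 0.334 in limma).

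The arrays also allow a comparison by the amount of RNA used to make the target. Every 10 µg array carries the letter a in its label and every 2 µg array the letter b. Amount therefore cannot be told apart from anything else that differed between a and b arrays. None of the 40 genes passed, and most lay slightly higher on arrays from 2 µg. The difference, 2 minus 10 µg, was positive in 28 of 40 (70%), against 47.1% of tested genes, with a median of 0.08 against -0.01, and ran from -0.14 (Rpl30) to 0.34 (Rps16). The split was 34 of 40 higher with arrays at a common median and 24 of 40 with quantile normalization. In limma 0 of 40 had an adjusted p under 0.05, as did 0 of 5244 probe sets (0%). At an unadjusted p under 0.05 there were 3 of 40, all higher, and 347 of all probe sets. With diet and number as a replicate block, 0 of 40 and 2 of 5244 passed. In that fit 6 of 40 had an unadjusted p under 0.05 in limma. The count at that level over all probe sets of the block fit is not given here, so the 6 have no background.

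The same lean was seen within pairs of arrays of 1 diet and number, which are arrays of the same fit and not further evidence. The median of the 40 differences was 0.13, 0.03 and 0.04 in sufficient pairs 1, 2 and 4 and 0.15, 0.09 and 0.06 in deficient pairs 1, 2 and 4. In these pairs 31, 25, 23, 30, 29 and 26 of 40 genes were higher at 2 µg. Of all tested genes 46.0%, 51.5%, 50.9%, 43.9%, 45.5% and 51.5% were higher in the same pairs. The mean of the 40 was higher in 6 of 6 pairs. The 3′ to 5′ differences changed with the amount by a mean of -0.04 for GAPDH (exact permutation p = 0.531 over 6 pairs, two-sided) and 0.06 for beta-actin (exact permutation p = 0.25). Their part in the result was not tested.

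Rps16, whose tail touches transfer RNA in the ribosome, had the largest such difference of the 40. From 10 µg it read 13.43, 13.76, 13.49 and 13.94 in sufficient animals 1 to 4 and 13.43, 13.64, 13.36 and 13.49 in deficient animals 1 to 4. From 2 µg it read 13.90, 13.89 and 14.15 in sufficient animals 1, 2 and 4 and 13.77, 13.85 and 13.92 in deficient ones. It was higher at 2 µg in 6 of 6 pairs, by 0.47, 0.13 and 0.21 in the sufficient and 0.33, 0.21 and 0.43 in the deficient pairs. The fitted difference was 0.34 (SE 0.08, adjusted p = 0.515 in limma), and 0.30 with the replicate block (SE 0.05, adjusted p = 0.0860 in limma); neither passed.

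Rpl31 gave 0.16 and was also higher in 6 of 6 pairs (adjusted p = 0.169 in limma with the replicate block, 0.746 without). Rpl23 gave 0.18 and was higher in 5 of 6 pairs. Among the dim probe sets Rpl17 gave 0.31, but only 0.12 with the replicate block, and was higher in 3 of 6 pairs. Rpl19l4 gave 0.29 (0.19 with the block) and was higher in 5 of 6 pairs. Rpl4 gave -0.12 and Rpl18 -0.08 (-0.07 and -0.03 with the block). The 5 lists of other translation genes had medians between -0.08 and 0.00 and 0 calls.

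**Figure D4:**
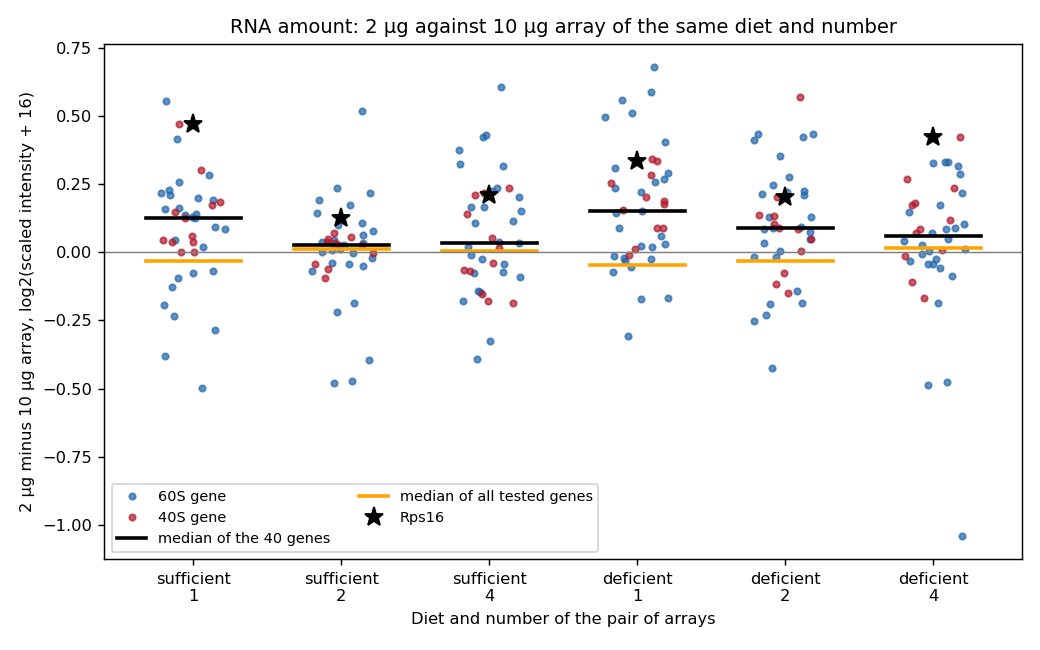
Difference between the 2 µg and the 10 µg array of the same diet and number (log2 of scaled intensity plus 16) for each of the 40 genes, 60S in blue and 40S in red, with black bars at their median, orange bars at the median of 3135 tested genes and stars for Rps16. The black bars lie above 0 and above the orange bars in all 6 pairs, between 0.03 and 0.15.

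Whether the diet difference depended on the RNA amount was asked through the interaction of both. In limma 0 of 40 genes had an adjusted p under 0.05, as did 0 of 5244 probe sets (0%), and at an unadjusted p under 0.05 there were 0 of 40 and 96 of all. Interaction values ran from -0.38 (Rpl41) to 0.54 (Rpl19l4), with intervals wide enough that only 20 of 40 lay within 0.5 of 0. Rpl5 (0.48) and Rps24 (0.40) had the smallest unadjusted p. With 2 µg arrays alone the median diet difference was -0.02, with 22 of 40 lower, and with 10 µg arrays alone -0.05, with 30 of 40 lower.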

How the data were processed

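The authors deposited 1 table of probe set intensity values on a linear scale for 14 arrays; which program made them, with which settings and normalization, is not given in the sources used here. The deposited trimmed means (2% off each end) lay between 1001.9 and 1002.1, so arrays had been scaled already. All 14 columns matched a label and 0 were left out. After removal of 59 control probe sets, arrays were rescaled to a trimmed mean of 500 and log2(intensity + 16) was taken. A filter on the mean at the 40th percentile (6.20) kept 5244. The platform annotation gave 7006 probe sets 1 symbol, 308 several and 1426 none; 6994 matched RefSeq by Entrez identifier and 0 symbols changed.

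For diet, the shift between RNA amounts was removed, arrays of 1 diet and number were averaged and 4 against 4 values were compared with limma 3.58.1 (under R 4.3.3; lmFit, eBayes with a trend, two-sided p, Benjamini-Hochberg over all tested probe sets, threshold 0.05). RNA amount and the interaction used 14 separate arrays. Deviations of arrays of 1 diet and number correlated at 0.202 to 0.351 in 6 of 6 pairs, against -0.25 to 0.12 for other numbers of the diet, so these numbers were taken as pairs; the labels do not state it.

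Members, lists and motifs were chosen with earlier results of these data known. Genes named were, per subunit, the 3 most positive and 3 most negative diet differences, the 3 brightest and the 3 dimmest; the 3 smallest diet and interaction p and the 3 largest amount differences each way; Rplp0, Rpsa, Rps6, Rps3, Rpl5, Rpl11, Rpl22, Rpl3l and Rps27l; up to 4 called genes of another list, otherwise the 2 with the smallest p; and the 5 genes most like the members. Genes named for their probe sets, start-site windows or marker calls came in addition, after their values were seen. Alternatives changed the scaling, pseudocount, filter, variance prior, array weights, arrays used, averaging, blocks and probe set, and left out each animal. The fits were tested on simulated data, with arrays drawn independently at the spread of the tested probe sets. The correlation seen between arrays of 1 diet and number was not simulated, so recovery for diet may be overstated. Of added changes of 0.5 in log2, 27.1% were recovered for diet, 45.9% for amount and 1.61% for the interaction. Of changes of 1, 66.7%, 87.3% and 40.3% were recovered.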

Additional observations from a re-analysis of the deposited data

Results flagged for a closer look

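In each diet, the 4 animals' values were examined for the 26 ribosomal protein genes named by rule and for the mean of all 40, which makes 54 sets. Of these, 2 held an animal that stood apart from the other 3 beyond the 95% limit of Dixon's test, where chance gives about 1 in 20. Rpsa read 13.04 in sufficient animal 4, against 12.60 to 12.64 in the other sufficient animals. Rpl30 read 7.55 in sufficient animal 1, against 7.71 to 7.73 in the others, on a dim probe set.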

How the results depend on the processing

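The count of 0 ribosomal protein genes called by diet held under each alternative but 1: with 14 separate arrays and amount as a covariate, which counts arrays that may share a liver as independent, 2 passed in limma, the probe set annotated as Rps27l, which may measure Rps27 (-0.34, adjusted p = 0.0227), and Rpl6 (0.29, adjusted p = 0.0445, its brightest probe set). Over the alternatives that keep a gene's brightest probe set Rps27l ran from -0.40 to -0.27 (adjusted p 0.0227 to 0.535 in limma), Rpl6 from 0.20 to 0.37 (0.0445 to 0.615), Rpl35 from -0.32 to -0.17 (0.114 to 0.745) and the amount difference of Rps16 from 0.30 to 0.38 (0.0860 to 1.00). The median diet difference moved by more than the spread between animals with a common median of every array (-0.12). Leaving out 1 animal at a time gave medians from -0.10 (without sufficient animal 1) to -0.02 (without sufficient animal 4) for diet and from 0.06 to 0.10 for amount, with 0 calls among these genes for diet, amount and interaction. Calls over all 5244 probe sets by diet, 90 as reported, were 349 with separate arrays, 250 with a random block, 33 with 2 µg arrays alone, 59 without sufficient animal 3 and 48 without deficient animal 4. With the number across diets as a replicate block, a number these arrays only share (correlations -0.08 to 0.07), the diet median was -0.05 with 0 genes called. With diet and number as a replicate block the amount median was 0.09; 2 of 5244 probe sets passed, against 0 without it, and 0 ribosomal protein genes. Of 572 alternative diet values of the 26 named genes 53 changed sign, in 15 genes, as did 27 of 494 amount values in 10 genes. No such value was called, and in dim probe sets low signal over background limits the precision.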
